A study of Mus musculus with 4 samples.

Results

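Free RNA of the mouse testis was compared with the RNA held in nuclei, within each of 4 single-nucleus RNA-seq (snRNA-seq) libraries. In droplet snRNA-seq each droplet tags its RNA with a barcode, and each captured molecule is counted once by a unique molecular identifier (UMI). The members of both pools were chosen by the total UMIs of each barcode, and for nuclei also by the number of genes detected. Free RNA was the sum over barcodes ranked 45000 to 90000 by UMIs, 45001 barcodes per library and 180004 in all. Nuclei were the barcodes with at least 1000 UMIs and 500 to 5000 genes, 36152 in all, and the 4 libraries listed 10383527 barcodes together. Gene composition played no part in this choice, so the levels of single genes could be tested between the pools. The names of both pools rest on these totals, and the text below gives the gene content that goes with them.

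The libraries came from whole testes of 8-week-old male mice, 2 labelled WT and 2 labelled Dhx37-/-. Dhx37-/- mice carried Dhx37 flox/flox, with loxP sites around exon 2, on a C57BL/6-based background together with an AMH-Cre transgene. The Amh promoter directs this Cre to Sertoli cells, the somatic nurse cells of the seminiferous tubule, and recombination in other cells was not tested here. WT littermates served as controls, and the number of animals behind each library is not given in the sources used here. In a sum over a whole testis, fewer cells of a type and less RNA per cell cannot be told apart. P-values of free against nuclear RNA measure the spread of the within-library difference over 4 libraries, and those between genotypes the spread between 2 libraries per genotype. The labels name the libraries as biological replicates.

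Transcription starts in the nucleus, where introns are removed by splicing before most mRNAs leave through nuclear pores. Long genes hold unspliced RNA for longer during transcription, and some long noncoding RNAs, such as Malat1, stay in nuclei. Cytoplasmic mRNA, ribosomal RNA and mitochondrial RNA are outside the nucleus, and they are released when a tissue is homogenised in a lysis buffer. Testis is rich in haploid spermatids, which store mRNAs for protamines and tail proteins in the cytoplasm before their chromatin is compacted. These statements are background and not results of these data.

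Small nucleolar RNAs (snoRNAs) guide the maturation of ribosomal RNA, and 2 of them that took a larger share of UMIs in free RNA than in nuclei are shown here because the account of small RNAs turns on them. The sequences are those of the GENCODE M21 transcripts on GRCm38, 5′ to 3′. Snord118, the U8 snoRNA, lies on the plus strand at chr11:69073427-69073561 and has 135 bases. Snora73b lies on the minus strand at chr4:132352322-132352526, inside Rcc1 and Snhg3, and has 205 bases. In Snord118 the capitals mark a box C motif (ATGATGA or GTGATGA) and the last CTGA of the transcript, the letters of box D. In Snora73b they mark the last ACA, the box of the H/ACA class, which ends 3 bases before the 3′ end. A search on the transcribed strand found ATGATGA or GTGATGA followed by CTGA in 324 of 1507 annotated mouse snoRNA transcripts (21.5%), and a match is a description only.
Snord118: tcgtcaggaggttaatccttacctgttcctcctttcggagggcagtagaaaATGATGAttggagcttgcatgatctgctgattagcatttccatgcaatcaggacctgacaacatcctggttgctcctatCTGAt
Snora73b: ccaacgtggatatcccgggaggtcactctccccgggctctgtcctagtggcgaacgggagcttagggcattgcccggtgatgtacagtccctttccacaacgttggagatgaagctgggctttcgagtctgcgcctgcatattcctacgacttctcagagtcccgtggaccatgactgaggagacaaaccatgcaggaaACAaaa

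Summed UMIs of free RNA came to 13046310 for WT replicate 1, 6918474 for WT replicate 2, 11390375 for Dhx37-/- replicate 1 and 9471300 for Dhx37-/- replicate 2, which was 12.5% to 19.5% of all UMIs. The nuclear pools held 31274566 to 45167558 UMIs, or 52.0% to 60.4%. A free barcode had a median of 320 and 197 UMIs in WT replicates 1 and 2, and of 279 and 264 in Dhx37-/- replicates 1 and 2. The median nucleus held 3332 to 4193 UMIs. The mean free barcode held 8.14% and 3.96% of the UMIs of the mean nucleus in WT replicates 1 and 2, and 6.14% and 4.59% in Dhx37-/- replicates 1 and 2. The window began at 242 to 384 UMIs and ended at 6 to 9 UMIs, and the barcodes just outside it had the same UMIs at both ends. It ran over a steep fall in the ranked curve, and 4015 to 11915 of its barcodes per library had under 50 UMIs, but these gave only 0.469% to 1.69% of its UMIs. The lowest nucleus held 1000 or 1001 UMIs and the highest barcode under that limit 999. Any pair of libraries shared 17 to 28 nuclear barcodes and 881 to 1139 free barcodes.

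**Figure D1:**
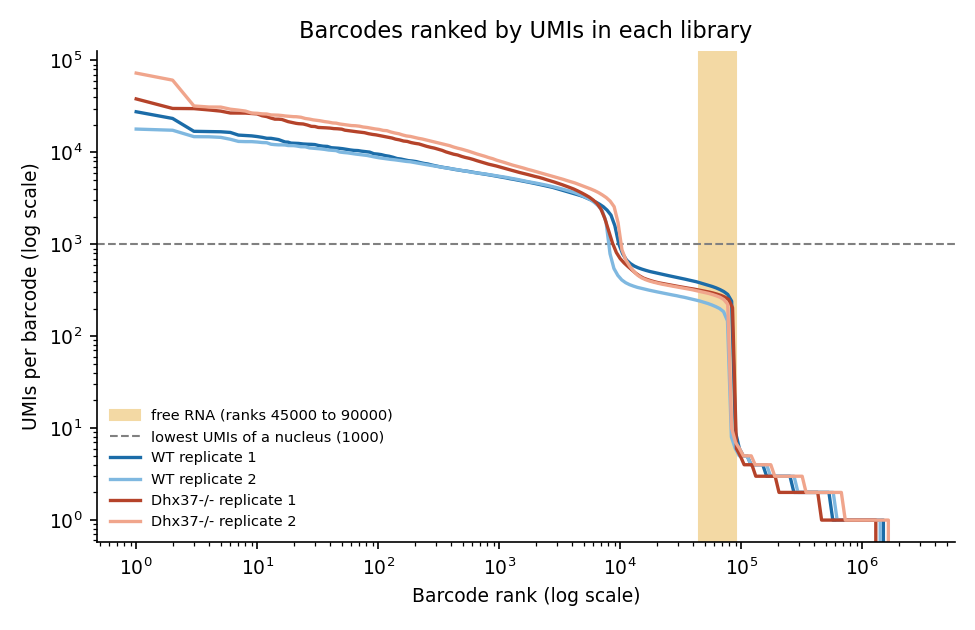
UMIs per barcode against barcode rank, both on log scales, with 1 line per library, the free window shaded and the lowest UMIs of a nucleus dashed. Each curve has a plateau of nuclei above 1000 UMIs, a second plateau, and a fall to under 10 UMIs, and the window covers the lower end of the second plateau and the fall.

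All levels below are CPM, the UMIs of a gene scaled to the same total in every pool, not divided by gene length, and all differences are log2 of free over nuclear CPM from edgeR. Their standard error (SE) was taken as the absolute log2 difference divided by the square root of the F statistic of the edgeR test. A CPM is a share, so a rise of some genes lowers the others. Genes were called at an adjusted p under 0.05 and at least a 2-fold difference, and between genotypes at that adjusted p alone. WT replicate 1 stood apart from the other libraries. Its median absolute log2 difference from them over genes, in the free over nuclear ratio, was 0.39, 0.48 and 0.40, against 0.21 to 0.33 among the other libraries. Counts over all genes are therefore also given without it, and the count of a list or the fold of a named gene where leaving out a library changed the count by over 1.5 times or ended or added a call.

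Of 28773 genes tested, 4022 (14.0%) were higher in free RNA and 9293 (32.3%) were higher in nuclei. Without WT replicate 1 the counts were 4226 and 10332. The median gene lay at -0.49 on the log2 scale. TMM scaling moved the median by 0.30 to -0.19, and the calls became 5647 higher in free RNA and 6720 in nuclei. The share of calls that were higher in free RNA was thus 30.2% with totals and 45.7% with TMM. With totals, 16.2% of the 17963 protein-coding genes were higher in free RNA and 22.1% in nuclei, with a median of -0.21. The middle 98% of genes lay between -3.03 and 1.96, and of the 3246 genes with at least 100 CPM in either pool only 43 were 2 or more log2 units higher in free RNA and 99 that much higher in nuclei. By the call, 896 of these 3246 genes were higher in free RNA and 968 in nuclei. In the Dhx37-/- free pools 1033 and 1266 genes made up 50% of UMIs, against 1459 and 1386 in WT. In nuclei the order was the other way, with 1806 and 1750 genes against 1412 and 1605.

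**Figure D2:**
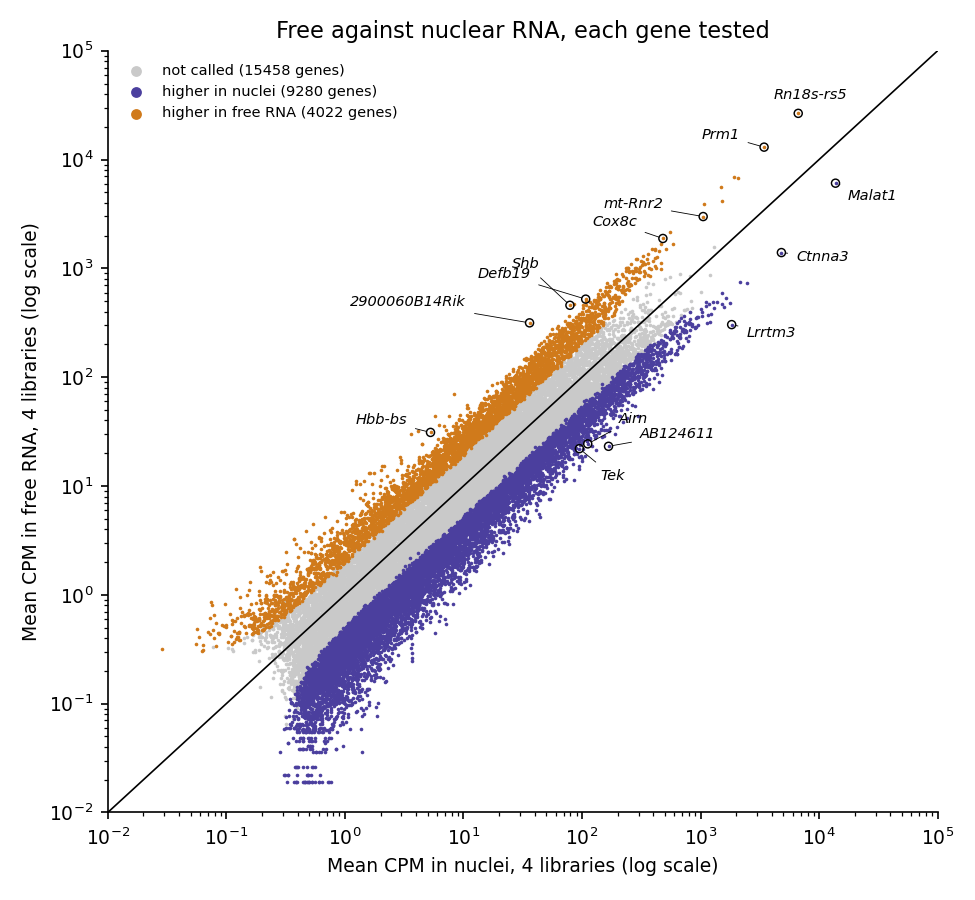
Mean CPM of each gene in free RNA against that in nuclei over 4 libraries, both on log scales, coloured by call, with the line of equality and some named genes. Genes called in free RNA and in nuclei run as 2 bands beside the line at all levels, and the 13 genes at 0 in free RNA are not drawn.

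The gene with the highest mean level in free RNA was Rn18s-rs5, a copy of the 18S ribosomal RNA sequence, but in both Dhx37-/- libraries Prm1 was higher, and without WT replicate 1 the mean was 14783 CPM against 15694.5 for Prm1. It had 62001, 20193, 11067 and 13090 CPM in the free pools of WT replicates 1 and 2 and Dhx37-/- replicates 1 and 2. In the nuclei of the same libraries it had 17113, 3825, 2679 and 3067 CPM. WT replicate 1 was the highest library in both pools, and every free pool lay above its own nuclei (log2 2.10, SE 0.24, adjusted p = 2.7e-05). 18S rRNA exists in many copies, so how its reads were assigned among them is uncertain. The mitochondrial 16S rRNA mt-Rnr2 had 3643, 3306, 2941 and 2084 CPM in free RNA against 1602, 803, 1082 and 723 CPM in nuclei (1.55, SE 0.21, adjusted p = 6.8e-05).

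Spermatid transcripts filled most of the other top places in free RNA. Prm1, a protamine that replaces histones in sperm, had 4943, 12143, 21359 and 13582 CPM in free RNA and 2290, 2928, 5372 and 3158 CPM in nuclei. Both Dhx37-/- free pools lay above both WT free pools, although edgeR called 0 of 22332 genes between genotypes in free RNA. For Prm1 each free pool lay above its own nuclei (1.82, SE 0.25, adjusted p = 7.2e-05). Its ratio was smallest in WT replicate 1. All 5 tested protamine and transition protein genes were higher in free RNA, with a median of 1.75. Tnp2, Tnp1, Prm3 and Prm2 differed by 1.81, 1.75, 1.75 and 1.61. Ldhc, the lactate dehydrogenase of germ cells, differed by 1.43, Meig1, needed for the sperm tail, by 1.79, and Fabp9, a fatty acid binding protein of the sperm head, by 1.88.

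Rn18s-rs5 and the protamines Prm1 and Prm2 were also among the 10 genes with most UMIs in nuclei, and Rn18s-rs5 was the first in WT replicate 1. Malat1, a long noncoding RNA of nuclear speckles, had 9231, 10902, 17990 and 16924 CPM in nuclei and 5976, 4627, 6195 and 7470 CPM in free RNA. It was still among the 10 genes with most UMIs in free RNA, but each free pool lay below its own nuclei (-1.15, SE 0.24, adjusted p = 0.0011). The call for Malat1 was lost with TMM, at -0.85, with DESeq2 or its size factors in edgeR, at -0.82, and with nuclei thinned to 1000 UMIs each, at -0.95. Ctnna3, which encodes the adhesion protein alpha-T-catenin over 1574 kb, had 6191, 4245, 4029 and 4780 CPM in nuclei and 3129, 1003, 525 and 931 CPM in free RNA. The lowest nuclear level was above the highest free level, and WT replicate 1 was the highest library in both pools (-2.10, SE 0.30, adjusted p = 8.5e-05). Agbl4, a carboxypeptidase that trims glutamate from tubulin, spans 1267 kb and differed by -1.81. The antisense transcript 1700020G17Rik at the E2f7 locus differed by -2.01, and Gm8251 by -1.96.

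The genes with the largest differences were named by a fixed rule, among those with at least 100 CPM in the pool where they were higher and the same direction in all 4 libraries. On the free side, 2900060B14Rik stood first. It is annotated as an antisense RNA of 0.616 kb within Clasp1, and a predicted small nuclear RNA gene, Gm22710, overlaps it on the same strand, so its reads cannot be assigned to one of them. It had 199, 419, 257 and 388 CPM in free RNA and 30.7, 43.6, 28.7 and 41.5 CPM in nuclei (3.09, SE 0.18, adjusted p = 8.3e-06). The free and nuclear levels did not come near each other in any library. Shb, an adaptor protein with an SH2 domain, had 589, 745, 265 and 233 CPM in free RNA and 102, 74.9, 76.7 and 62.5 CPM in nuclei (2.38, SE 0.25). Its span of 109 kb was unusual on this side, and a predicted miRNA gene, Gm22518, lies inside it on the same strand.

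Most of the other leading genes of free RNA encode small proteins of the ribosome and of respiration. Rps26 and the ribosomal protein paralog Rps27l differed by 2.40 and 2.22. Ndufa6, Ndufs6 and Ndufa11, subunits of respiratory complex I, differed by 2.16, 2.14 and 2.14, and Atp5e, the epsilon subunit of ATP synthase, by 2.16. Cops9, a subunit of the COP9 signalosome, differed by 2.14. A pair of secreted proteins was also there. Defb19, a beta-defensin known from Sertoli cells, had 181, 379, 896 and 630 CPM in free RNA and 54.2, 53.0, 193 and 130 CPM in nuclei (2.27, SE 0.21). Cst9, a cystatin known from Sertoli cells, had 87.7, 151, 365 and 258 CPM in free RNA and 22.5, 23.7, 87.0 and 57.8 CPM in nuclei (2.21, SE 0.18). For both, each Dhx37-/- library was above each WT library in both pools, and the free level was above the nuclear level in every library. Between genotypes edgeR called 0 of 22332 genes in free RNA and 0 of 30015 in nuclei, and DESeq2 called 350 and 270. How many genes separate the 4 libraries by genotype was not counted.

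On the nuclear side, AB124611 stood first, with 113, 242, 162 and 153 CPM in nuclei and 21.7, 36.1, 15.2 and 19.6 CPM in free RNA (-2.87, SE 0.20, adjusted p = 1.3e-05). Zfp981, a zinc finger gene, differed by -2.81 and the long noncoding Gm2516 by -2.74. Lrrtm3, which encodes a leucine-rich synaptic membrane protein, had 1024, 3013, 1686 and 1601 CPM in nuclei and 311, 540, 135 and 230 CPM in free RNA (-2.66, SE 0.28). Lrrtm3 lies within an intron of Ctnna3 on the opposite strand, and whether the authors' counting used strand is not given in the sources used here. Plxna2, a semaphorin receptor, and Kcnb2, a voltage-gated potassium channel, both differed by -2.52. The antisense RNAs 4831440D22Rik at the Fto locus, Gm42557 at the Rxfp2 locus and 4930586N03Rik at the Zfp322a locus differed by -2.61, -2.54 and -2.52. The pseudogenes Gm6729 and 4930432E11Rik differed by -2.58 and -2.57, and reads of Gm6729 could also come from a gene of near-identical sequence. The long noncoding Gm20754, of 529 kb, differed by -2.51. Of these 12 genes 5 are annotated as protein-coding, and most overlap another gene on one strand or the other.

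Of 81 tested genes for cytosolic ribosomal proteins, 80 were higher in free RNA and none in nuclei, with a median of 1.84 against -0.49 for all genes tested. Together they made up 1.38%, 3.21%, 4.28% and 3.93% of free UMIs and 0.564%, 0.725%, 1.05% and 0.984% of nuclear UMIs. WT replicate 1 had the lowest share in both pools, and each free share was above all 4 nuclear shares. Reads of ribosomal protein genes can also match their processed pseudogenes. Rps29 had most UMIs (673, 1658, 1447 and 1399 CPM in free RNA, difference 1.93). Rpl10 was the only member not called, at 0.51 (SE 0.18). Of 46 tested nuclear genes for the respiratory chain, 45 were higher in free RNA and none in nuclei, with a median of 1.88. Cox8c, the testis form of a cytochrome oxidase subunit, had 810, 2040, 2475 and 2205 CPM in free RNA and 330, 447, 615 and 534 CPM in nuclei. Ndufa3 was the highest member at 2.24, and Sdha, a subunit of complex II, the only one not called, at 0.83, though TMM gave 1.12 and DESeq2 1.16, both with a call.

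Of 19 tested genes filed under translation factors, 15 were higher in free RNA and none in nuclei, with a median of 1.34. Over all genes tested 14.0% were higher in free RNA and 32.3% in nuclei. Tpt1, the translationally controlled tumour protein, was the highest at 1.77, and Pabpc1, the cytoplasmic poly(A) binding protein, had most UMIs and differed by 1.1. Eif5b, which joins the ribosomal subunits, had 359, 302, 282 and 336 CPM in free RNA and 280, 310, 309 and 359 CPM in nuclei (0.02, SE 0.17, adjusted p = 0.91). Its pools overlapped. Mitochondrial mRNAs are made inside the organelle and never enter the nucleus. Of 11 tested, 7 were higher in free RNA and none in nuclei, with a median of 1.06, which was below that of the nuclear genes for the same chain. Without WT replicate 2 only 3 were called, with a median of 0.74. With nuclei thinned to 1000 UMIs 1 of the 11 was called (median 0.71), which is not above the 3376 of 24973 genes higher in free RNA there. Against ranks above 90000 up to 180000, 2 of the 11 were called (median 0.53), beside 2060 of 27335 genes. TMM gave 9 calls and DESeq2 10. The highest was mt-Atp6 at 1.28 and the lowest mt-Cytb at 0.55. The call for mt-Atp6 was lost with nuclei thinned to 1000 UMIs, at 0.93, and without WT replicate 2, at 0.99. mt-Nd1 had 180, 188, 300 and 231 CPM in free RNA and 97.0, 58.8, 190 and 149 CPM in nuclei (0.96, SE 0.20), and the pools overlapped between libraries although each free level was above its own nuclear level. With TMM mt-Nd1 was called at 1.26, with DESeq2 at 1.29, and without Dhx37-/- replicate 1 or 2 at 1.07. Their summed share was 0.0812% to 0.121% of free UMIs and 0.0306% to 0.0763% of nuclear UMIs.

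**Figure D3:**
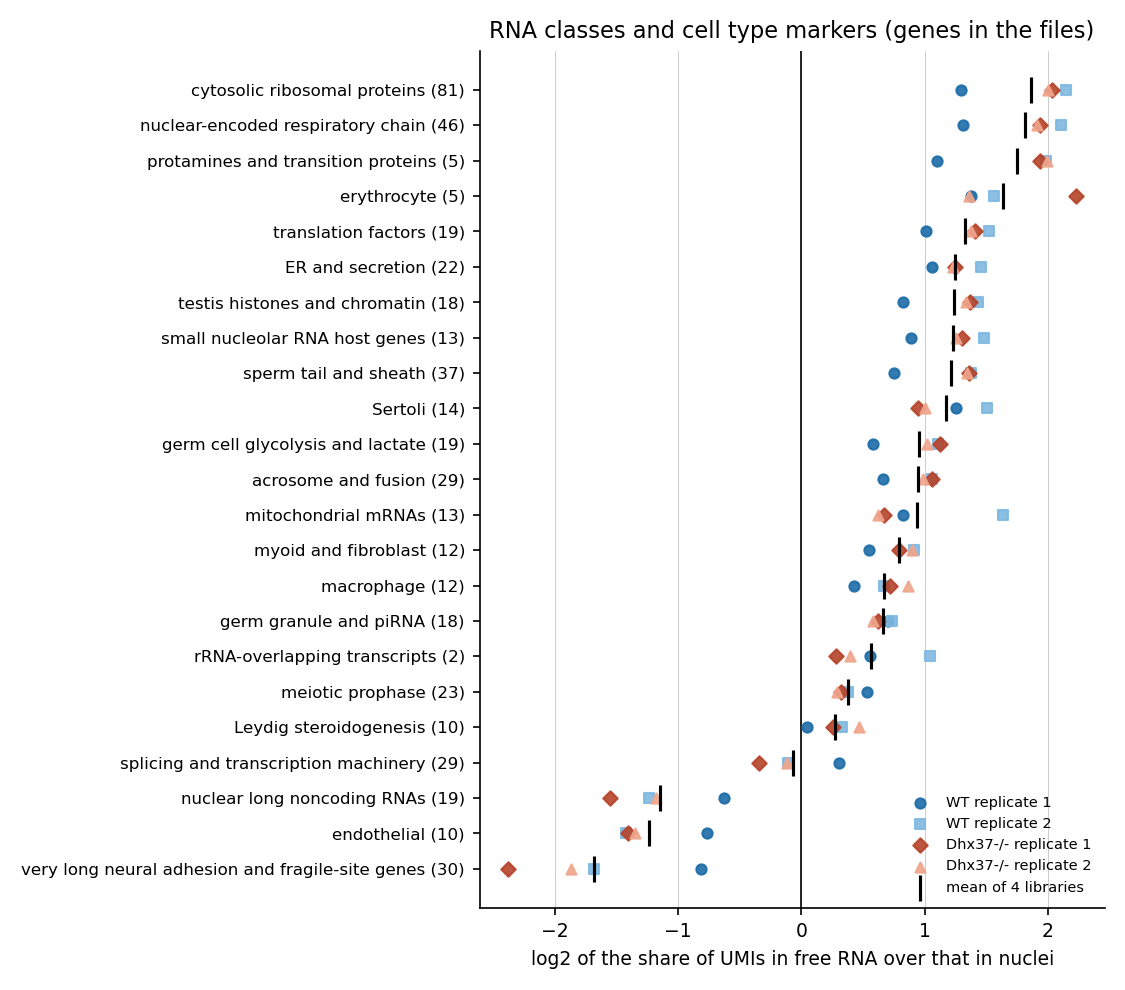
log2 of the share of UMIs in free RNA over that in nuclei for each list, with 1 point per library and a bar at the mean. The 3 lists at the bottom lie below 0 in all 4 libraries, splicing and transcription machinery has libraries on both sides, and WT replicate 1 is nearest to 0 in most lists.

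Among germ cell lists the medians ran from 1.75 for protamines and transition proteins to 0.08 for meiotic prophase. These 2 lists also differed in median span, at 0.836 kb and 35.5 kb. Protein-coding genes whose mean CPM in free RNA and in nuclei summed to at least 20 had a median of 1.48 under 2 kb. At 30 to 100 kb their median was -0.38. Of these span groups 83.0% and 4.81% were higher in free RNA. Over all genes tested the median was -0.49, with 14.0% higher in free RNA and 32.3% in nuclei. Of 37 tested genes for the sperm tail and sheath, 22 were higher in free RNA and none in nuclei (median 1.21), from Gstm5, a glutathione transferase of the sheath, at 1.88 to Cabyr, a calcium binding sheath protein, at -0.38. Of 29 genes for the acrosome and gamete fusion, 14 were higher in free RNA and none in nuclei (median 0.87). Spink2, an inhibitor of the acrosomal protease, had 462, 1342, 1602 and 1471 CPM in free RNA and 168, 265, 380 and 359 CPM in nuclei (1.98, SE 0.20). Spaca6, needed for fusion with the egg, was the lowest at -0.40. Of 18 tested testis histones and chromatin genes, 13 were higher in free RNA (median 1.56), with H2bl1, a histone of spermatids, at 1.86, H3f3b, which encodes histone H3.3, at 1.66, and the remodeller Chd5 lowest at -0.75. Of 19 glycolysis and lactate genes, 8 were higher in free RNA (median 0.88), from the muscle and sperm form of phosphoglycerate mutase, Pgam2, at 1.85, to the lactate carrier Slc16a7 at -0.80.

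Of 23 tested genes of meiotic prophase, 4 were higher in free RNA and 2 in nuclei, with a median of 0.08 against -0.49 for all genes tested. The first count is near the 14.0% of all genes and the other below the 32.3%. Without WT replicate 1, 5 of 22 were higher in nuclei and the median was -0.10, while without Dhx37-/- replicates 1 and 2 in turn 1 and 0 of 23 were. With TMM and with DESeq2, 7 of 23 were higher in free RNA and none in nuclei, with medians of 0.37 and 0.40. Sycp3, which encodes a protein of the synaptonemal complex, had 208, 236, 296 and 293 CPM in free RNA and 64.9, 61.4, 91.6 and 85.7 CPM in nuclei (1.77, SE 0.16). All 4 free pools lay above all 4 nuclear pools. Smc1b, the meiotic cohesin, had 414, 324, 264 and 279 CPM in free RNA and 332, 348, 306 and 356 CPM in nuclei, and the pools overlapped (-0.09, SE 0.18, adjusted p = 0.66). Mei4, needed for meiotic DNA breaks, lies over 342 kb and differed by -1.08, a call that was lost with TMM, at -0.79, with DESeq2, at -0.77, with its size factors in edgeR, at -0.76, with ranks above 90000 up to 180000, at -0.17, and without Dhx37-/- replicate 2, at -0.85. Of 18 genes of the germ granule and of piRNAs, the small RNAs that silence transposons, 7 were higher in free RNA and none in nuclei (median 0.88). Ybx2, which binds stored mRNAs of germ cells, was the highest at 1.70, Gtsf1, a piRNA factor, had most UMIs and differed by 1.22, and the tudor protein gene Rnf17 was the lowest at -0.96 over 122 kb. Without WT replicate 1, 3 of the 18 were higher in nuclei, and Rnf17 was called there at -1.21.

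Markers of Sertoli, Leydig, myoid and endothelial cells, fibroblasts, macrophages and red blood cells had UMIs in both pools, and other somatic cell types were not looked at. Of 14 Sertoli markers, 8 were higher in free RNA and 1 in nuclei (median 1.33). The nuclear count was 2 without either WT replicate and 0 without Dhx37-/- replicate 1. Ctsl, a cathepsin, had 143, 164, 280 and 252 CPM in free RNA and 30.7, 29.1, 94.0 and 76.7 CPM in nuclei (2.00, SE 0.19), and all free pools lay above all nuclear pools. The androgen-regulated homeobox gene Rhox5 differed by 1.94, the chaperone Clu by 1.86 and Aard by 1.65. The receptor for follicle stimulating hormone, Fshr, which spans 216 kb, differed by -1.16, a call that was lost with TMM, at -0.87, with DESeq2, at -0.84, with its size factors in edgeR, at -0.83, with ranks above 90000 up to 180000, at -0.64, with nuclei thinned, at -0.76, and without Dhx37-/- replicate 1, at -0.87. The transcription factors named here were not called, with Sox9 at 0.85, Wt1 at 0.19 and Gata4 at -0.88. Sox9 passed at 1.15 with TMM, at 1.18 with DESeq2 and at 1.03 without Dhx37-/- replicate 1. Gata4 passed at -1.08 without WT replicate 1 and at -1.17 without WT replicate 2. Of 10 genes of Leydig cells, which make testosterone, 3 were higher in free RNA and 1 in nuclei (median 0.16), and on so few genes nothing is read from these counts beside the 14.0% and 32.3% of all genes. Insl3, a secreted peptide of these cells whose gene overlaps Jak3 on the same strand, had 11.3, 119, 359 and 242 CPM in free RNA and 8.58, 27.3, 134 and 84.4 CPM in nuclei (1.39, SE 0.24), with WT replicate 1 far below the other libraries. Without the library block the call for Insl3 was lost although the difference was 1.52. Fdx1, the electron donor of steroid synthesis, differed by 1.42 and Cyp17a1 by 1.03, the last a call that was lost without any one of WT replicate 1, WT replicate 2 or Dhx37-/- replicate 2 (0.96 to 0.99). Scarb1, the receptor that takes up cholesterol, differed by -1.18, a call that was lost with TMM, at -0.89, with DESeq2 or its size factors in edgeR, at -0.85, and against ranks above 90000 up to 180000, at -0.29. Star, which brings cholesterol into mitochondria, lay at -0.12.

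Of 12 macrophage markers, 5 were higher in free RNA and none in nuclei (median 0.80), from lysozyme, Lyz2, at 1.56 and the invariant chain Cd74 at 1.39 to Adgre1, an adhesion receptor of 125 kb, at -0.52. With nuclei thinned to 1000 UMIs only 1 of the 12 was called, with a median of 0.36, and Cd74 fell to 0.69 and was not called. Mrc1, the mannose receptor, had most UMIs of the list and lay at -0.13. Of 12 markers of peritubular myoid cells and fibroblasts, 3 were higher in free RNA and none in nuclei (median 0.70), again too few genes to read beside the 14.0% of all genes. They ran from the proteoglycan Dcn at 1.52 to smooth muscle myosin, Myh11, at -0.92. Myh11 was called in nuclei, as the only one of the 12, without WT replicate 1, at -1.07, and without WT replicate 2, at -1.05. Of 10 tested endothelial markers, 1 was higher in free RNA and 3 in nuclei, near the 14.0% and 32.3% of all genes. Their median was -0.52, against -0.49 over all genes and -0.21 over protein-coding genes. Of protein-coding genes 16.2% were higher in free RNA and 22.1% in nuclei. Tek, the angiopoietin receptor, had 62.8, 174, 72.8 and 71.0 CPM in nuclei and 25.9, 40.5, 8.60 and 13.2 CPM in free RNA (-2.20, SE 0.25), and no nuclear level fell into the free range. Emcn, an endothelial sialomucin, differed by -2.13 and Eng, a TGF-beta coreceptor, by -1.13, while the short gene Ly6c1 differed by 1.79. Only Ly6c1 of the 10 lay above 0. The call for Eng was lost with TMM, at -0.84, with DESeq2, at -0.82, with its size factors in edgeR, at -0.81, and against ranks above 90000 up to 180000, at -1.44.

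Red blood cells have no nucleus in mammals. All 4 globin genes were higher in free RNA, with Hbb-bs at 2.51, Hba-a2 at 2.49, Hba-a1 at 2.35 and Hbb-bt at 2.33. Their summed free level was 18.2, 28.5, 173 and 25.2 CPM, and Dhx37-/- replicate 1 was far above the other libraries. In nuclei it was 4.78, 4.03, 29.3 and 4.52 CPM, which was 26.3%, 14.1%, 16.9% and 17.9% of the free level of the same library. The mean free barcode of the same libraries held 8.14%, 3.96%, 6.14% and 4.59% of the UMIs of the mean nucleus. WT replicate 1 was the highest and WT replicate 2 the lowest in both series, while the order of the Dhx37-/- replicates differed. Reads of the paralogous globin genes can be split among them. How much of the nuclear sums is free RNA was not tested. With the free profile subtracted from the nuclear sums in proportion to the number of barcodes, 4421 genes were higher in free RNA and 9656 in nuclei. Alas2, the erythroid enzyme of haem synthesis, had 4.68, 5.06, 9.48 and 9.50 CPM in free RNA and 4.03, 7.29, 9.61 and 8.99 CPM in nuclei (-0.05, SE 0.20), and its pools overlapped.

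The lists with most members higher in nuclei were very long genes and nuclear long noncoding RNAs. Of all genes tested 32.3% were higher in nuclei, and of the 562 protein-coding genes over 300 kb 77.0%, with a median of -1.38. Of 30 tested neural adhesion and fragile-site genes, whose median span is 1233 kb, 26 were higher in nuclei and none in free RNA (median -1.54). They made up 1.77%, 1.44%, 1.23% and 1.41% of nuclear UMIs and 1.01%, 0.449%, 0.236% and 0.384% of free UMIs. WT replicate 1 had the highest share in both pools and the smallest difference. Rbfox1, a splicing regulator over 1526 kb, was the lowest at -2.21, and Macrod2, an ADP-ribose hydrolase gene of 1998 kb, the highest at -0.69. Of 18 tested nuclear long noncoding RNAs, whose median span is 44.3 kb, 12 were higher in nuclei and none in free RNA (median -1.26). Of the 1056 tested long noncoding genes of 30 to 100 kb, 63.4% were higher in nuclei, with a median of -1.27. The list thus lay near other long noncoding genes of its span. With TMM 7 were higher in nuclei, and with DESeq2 6 were, with 1 higher in free RNA. Against ranks above 90000 up to 180000 only 1 was higher in nuclei. Airn, the antisense RNA that silences Igf2r on the paternal chromosome, had 78.3, 183, 111 and 75.8 CPM in nuclei and 27.3, 43.4, 13.7 and 13.2 CPM in free RNA (-2.27, SE 0.23), with no overlap. Norad, a noncoding RNA known to act in the cytoplasm, was the highest of the list with 32.7, 27.0, 25.2 and 26.8 CPM in free RNA and 18.5, 16.0, 17.9 and 16.3 CPM in nuclei. Its difference of 0.70 (SE 0.16) did not reach 2-fold, although its pools did not overlap, and with DESeq2 it was called at 1.03.

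Of 29 tested genes of the splicing and transcription machinery, 2 were higher in free RNA and 1 in nuclei (median 0.10), both below the 14.0% and 32.3% of all genes. Without Dhx37-/- replicate 1 the counts were 4 and 0, without WT replicate 1 they were 2 and 2, and without WT replicate 2 or Dhx37-/- replicate 2 they were 2 and 0. Polr2b, a subunit of RNA polymerase II, differed by 1.44, the RNA helicase Ddx5 by 0.29, and Son, a speckle protein, by -1.01, which was not called with TMM (-0.72), with DESeq2 or its size factors in edgeR (-0.68), against ranks above 90000 up to 180000 (-0.74), with nuclei thinned (-0.99) and without WT replicate 2 (-0.92) or either Dhx37-/- replicate (-0.91 and -0.98). Of 22 genes of the endoplasmic reticulum and secretion, 16 were higher in free RNA and none in nuclei (median 1.19). They ran from Sec61g, a subunit of the protein channel of this membrane, at 2.01, through the chaperone Hsp90b1 at 1.54, to the cargo receptor Tmed10 at 0.27.

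The annotated span of a gene ordered the differences over all genes. In protein-coding genes the median was 1.24 for 659 genes under 2 kb, 0.03 for 5705 genes of 10 to 30 kb and -1.38 for 562 genes over 300 kb. Of the shortest group 60.7% were higher in free RNA and 8.80% in nuclei, and of the longest 0.0% and 77.0%. Spearman's rho between span and difference was -0.47 over 17963 protein-coding genes and -0.67 over the 10101 whose mean CPM in free RNA and in nuclei summed to at least 20. For the same 17963 genes it was -0.22 for the number of exons. Genes share libraries and are not replicates, so these are descriptions. Genes with few UMIs could pass the filter through 1 pool only, and among the 10101 the median was 1.48 under 2 kb and -1.40 over 300 kb. Among all genes tested, long noncoding genes had a lower median than protein-coding genes of the same span in every bin, at 0.29 under 2 kb and -1.09 at 10 to 30 kb. The limit of 20 CPM was set for protein-coding genes only, so these types were not matched for level.

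**Figure D4:**
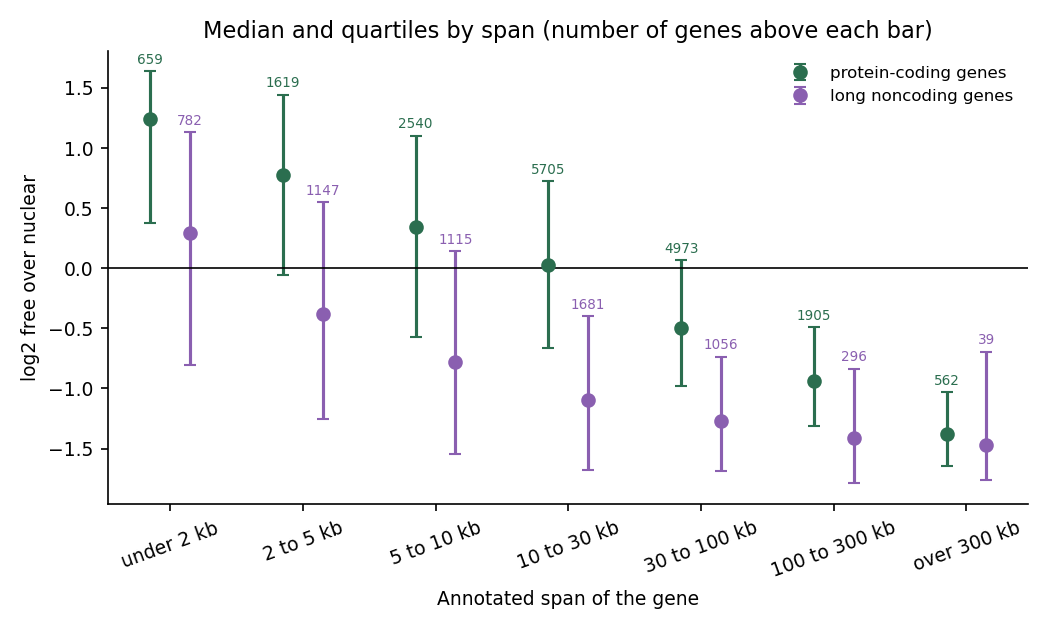
Median log2 free over nuclear with quartiles as bars, by annotated span, for protein-coding and long noncoding genes, with the number of genes above each bar. The medians fall in every step from 1.24 to -1.38 in protein-coding genes and from 0.29 to -1.47 in long noncoding genes.

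Small RNA genes were looked at after their values had been seen. Most have few UMIs and could enter the test through 1 pool only, so no counts over them are given. Snord118, whose sequence is given above and which lies inside no other gene of its strand, had 71, 48, 51 and 113 UMIs in free RNA and 60, 40, 43 and 93 in nuclei (2.13, SE 0.24). Snora73b had 347, 76, 86 and 68 UMIs in free RNA and 115, 55, 37 and 40 in nuclei (2.88, SE 0.20). Its free level of 26.6 CPM in WT replicate 1 was above the 7.18 to 11 CPM of the other libraries. Snhg3, a gene that holds Snora73b, had 69.8, 143, 229 and 199 CPM in free RNA and 25.5, 30.7, 60.3 and 55.5 CPM in nuclei (1.86, SE 0.17). Snhg3 and Snora73b differed in the same direction while their libraries were in a different order. Rcc1, which also holds Snora73b, was not set beside it. Whether UMIs of small RNA genes come from the mature small RNA was not tested. Of 13 snoRNA host genes, 7 were higher in free RNA and none in nuclei (median 1.08), from Snhg6 at 1.86 to Snhg17 at -0.20. Over all genes tested the shares were 14.0% and 32.3%. The median span of the 13 is 2.97 kb. Of genes of 2 to 5 kb, 15.5% of long noncoding and 41.7% of protein-coding ones were higher in free RNA. In the other direction, and chosen after their values were seen, the snoRNA gene Gm26163 had 20, 17, 1 and 8 UMIs in free RNA and 98, 256, 114 and 207 in nuclei (-2.01, SE 0.40), and the small nuclear RNA gene Gm22733 had 7, 12, 3 and 7 against 60, 200, 135 and 189 (-2.36, SE 0.34). Rpph1, the RNA of ribonuclease P, differed by 1.88. Of the 2 transcripts filed as overlapping ribosomal RNA, Lars2 differed by 0.87 (1.16 with TMM and 1.20 with DESeq2, where it was called) and AY036118 by -0.05.

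The composition was followed from nuclei through the ranks. Between the nuclei and rank 45000 lay the barcodes with under 1000 UMIs, and the protamine and transition protein genes made up 3.27% ± 1.6 (SD, n = 4) of their UMIs. Barcodes over the limit of 5000 genes, 13 and 15 in the WT and 204 and 302 in the Dhx37-/- libraries, were in neither set. This share was 0.928% ± 0.326 in nuclei, 3.34% ± 1.63 in the free window, 3.58% ± 1.27 in ranks above 90000 up to 180000 and 3.33% ± 1.21 beyond. Cytosolic ribosomal protein genes made up 0.830% ± 0.226 in nuclei and 3.20% ± 1.29 in the free window and 2.32% ± 0.521 in ranks above 90000 up to 180000. Mitochondrial mRNAs were highest between the nuclei and rank 45000, at 0.157% ± 0.0385, against 0.0962% ± 0.0177 in the free window, in each of the 4 libraries. Nuclear long noncoding RNAs were at 1.52% ± 0.439 in nuclei, 0.670% ± 0.116 in the free window and 0.745% ± 0.0983 in ranks above 90000 up to 180000. These shares were not tested.

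**Figure D5:**
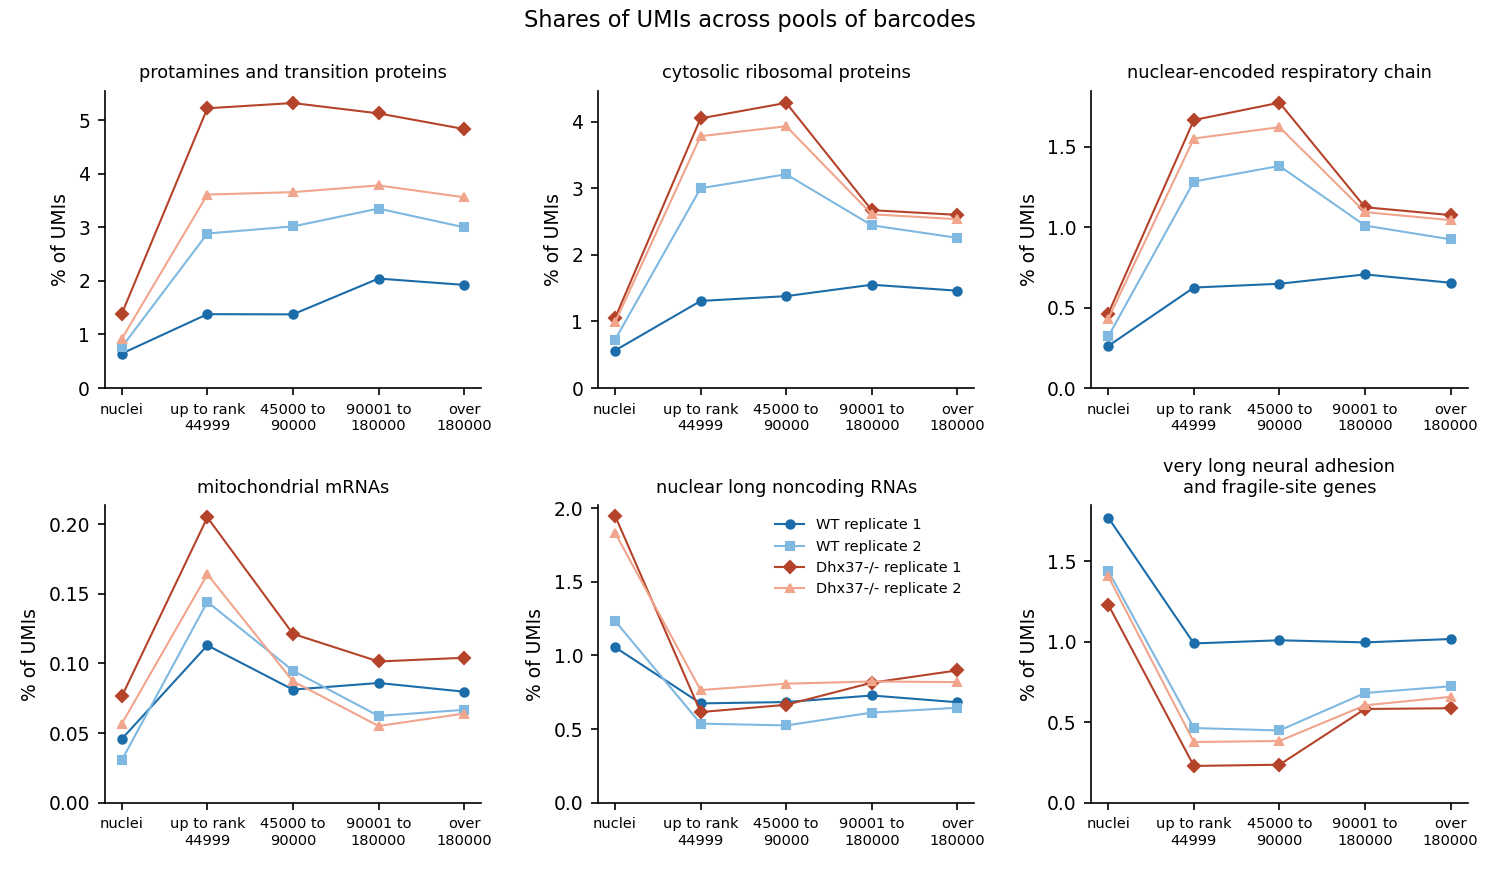
Share of UMIs of 6 lists in the nuclei, in barcodes with under 1000 UMIs up to the free window, and in 3 windows of rank, with 1 line per library. Protamines stay at 3.00% or more outside the nuclei beyond rank 45000 except in WT replicate 1, ribosomal protein and respiratory genes peak in the free window except in WT replicate 1, and mitochondrial mRNAs peak before it.

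The barcodes ranked above 90000 up to 180000, with 9 or fewer UMIs each and 322355 to 410055 UMIs per library, gave other values for ribosomal RNAs and for many named genes. Against this window 2060 of 27335 genes tested were higher outside the nuclei and 1329 in nuclei. All 5 protamine and transition protein, 73 of 81 ribosomal protein and 39 of 46 respiratory genes were still higher outside. So were 6 of 19 translation factors, 4 of 22 endoplasmic reticulum genes, 1 of 18 germ granule genes and 1 of 14 Sertoli markers. In nuclei, 10 of 30 very long genes and 1 of 18 nuclear long noncoding RNAs were still higher. The counts of 1 are near the shares over all genes in this window, so nothing is read from them. Rn18s-rs5 then lay at -0.40, mt-Rnr2 at -0.89 and Shb at -0.15, all below their nuclear level. Of 109 named genes, 62 had the same direction and the same call in this window, Prm1 among them, and 33 kept their direction but lost their call. On the free side these were 2900060B14Rik at 0.07, Dcn and Polr2b at 0.27, Cyp17a1 at 0.32, Sycp3 at 0.54, Rhox5 at 0.55, Hbb-bs at 0.62, Hsp90b1 at 0.74, Ctsl at 0.86, Fdx1 at 0.87, Aard at 0.91, Cd74 at 0.92, Ldhc at 0.93, Gtsf1 at 0.98, H3f3b and mt-Atp6 at 0.99, Hba-a2 at 1.1, Hba-a1 at 1.36, Hbb-bt at 1.62 and Ly6c1 at 1.81. On the nuclear side AB124611 lay at -0.75, Gm2516 at -0.89, Lrrtm3 at -0.65, Plxna2 at -0.45, Airn at -0.61, Rbfox1 at -0.79, Tek at -0.67 and Emcn at -0.58, beside Eng, Fshr, Mei4, Scarb1 and Son given above. Of the remaining named genes, 12 turned in the outer window and 2 gained a call. In the inner window of ranks 60000 to 75000, 108 of 109 kept direction and call, and Eif5b was the exception at -0.0096.

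Whether the free over nuclear ratio differed between the genotypes was asked by an interaction term. Dhx37 itself had 7.05 and 5.20 CPM in WT and 4.92 and 6.55 CPM in Dhx37-/- free RNA, and 7.03 and 11.9 CPM against 10.5 and 10.6 CPM in nuclei. These values overlapped, and a count of UMIs near the 3′ end does not check a deletion of exon 2 in Sertoli cells only. The ratio of Dhx37 was not called (-0.73, SE 0.23), and neither was its genotype difference (-0.36, SE 0.39, edgeR adjusted p = 0.67). Of 28773 genes, edgeR called 0 (0.0%) in the interaction, with 4888 at an unadjusted p under 0.05, and DESeq2 called 0 with 1570. Of those 4888 genes 128 had a higher ratio in Dhx37-/- libraries, against 1126 of 2873 with TMM and 781 of 1570 with DESeq2. The median over all genes was -0.37, or -0.06 with TMM.

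The 3 genes ranked first by p on each side did not pass adjustment. Fnbp1, a membrane-bending protein, had 40.7 and 23.3 CPM in WT and 13.2 and 17.1 CPM in Dhx37-/- free RNA, against 33.3 and 18 and then 43.9 and 46.1 CPM in nuclei (-1.91, SE 0.28, adjusted p = 0.056). In nuclei both Dhx37-/- libraries were above both WT libraries and in free RNA below them. The processed pseudogene Gm43960 differed by -2.05 (adjusted p = 0.056) and Acsl4, an acyl-CoA synthetase, by -1.98 (adjusted p = 0.071). In the other direction, the long noncoding 4930512J16Rik differed by 1.27, the antisense Gm15343 by 1.61 and the complement gene C1qb by 1.07, with adjusted p = 0.12, 0.12 and 0.14. The count depended on the libraries kept. It was 13 without WT replicate 1 and 5385 without WT replicate 2, where 1 WT library remained and the spread came from the Dhx37-/- libraries, and 0 without either Dhx37-/- replicate.

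Free RNA itself was then compared between genotypes, and edgeR called 0 of 22332 genes (0.0%), with 4196 at an unadjusted p under 0.05, while DESeq2 called 350. In nuclei it called 0 of 30015 (0.0%), with 4872 at an unadjusted p under 0.05, and DESeq2 called 270. Both comparisons use the same libraries as the interaction. Apoc1, an apolipoprotein, had 13.0 and 22.8 CPM in WT and 95.9 and 79.9 CPM in Dhx37-/- free RNA (2.30, SE 0.39, adjusted p = 0.14). 4930512J16Rik had 12.3 and 14.5 against 86.0 and 60.4 CPM (2.46, SE 0.37, adjusted p = 0.14). Gm16867 had 0 UMIs in both WT libraries of both pools, where 3 counts, the limit a count of 0 allows, are 0.23 and 0.434 CPM in free RNA and 0.0864 and 0.0959 CPM in nuclei, and 37 and 15 UMIs in Dhx37-/- free RNA and 108 and 117 in nuclei (adjusted p = 0.14 and 0.18). Gm10999, Mrgpra6 and Gm43960 were lower in Dhx37-/- free RNA by -3.03, -2.89 and -2.16 (adjusted p = 0.14 for each). In nuclei Gm15446 and Gm37350 differed by 3.53 and 2.71, and Gm42826, Grik2 and Gm10999 by -1.82, -1.48 and -2.41, with adjusted p from 0.16 to 0.24. None of these 10 genes passed in edgeR, with totals or with TMM. DESeq2 called 5 of the 6 genes named for free RNA, with no adjusted p for Gm16867, and 6 of the 6 named for nuclei.

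Without WT replicate 1 the counts were 1493 in free RNA and 5562 in nuclei, and without WT replicate 2 they were 7266 and 2078. Without Dhx37-/- replicate 1 they were 1 and 3, and without Dhx37-/- replicate 2 they were 5 and 5. With the replicate block, the counts were 19 for the ratio, 48 for free RNA and 27 for nuclei. For cytosolic ribosomal proteins 80 of 81 were higher in Dhx37-/- than in WT free RNA, with a median of 0.94 against -0.13 over all genes, yet WT replicate 2 at 3.21% lay nearer to the Dhx37-/- libraries than to WT replicate 1 at 1.38%. Over all genes 16871 of 30015 were higher in Dhx37-/- nuclei and 9553 of 22332 in Dhx37-/- free RNA. In nuclei, 46 of 46 respiratory, 22 of 22 endoplasmic reticulum, 12 of 12 myoid and fibroblast and 9 of 10 Leydig genes were higher, and so were 1 of 10 endothelial markers, 6 of 30 very long genes and 9 of 18 nuclear long noncoding RNAs. For Sertoli markers 14 of 14 were higher in Dhx37-/- nuclei (median 1.21) and 11 of 14 in free RNA (median 0.31). Their ratio was higher in 1 of 14, against 7437 of 28773 over all genes (medians -0.74 and -0.37). None of the 14 was called in any of the 3 comparisons.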

How the data were processed

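Single-nucleus RNA of 4 testis libraries was sequenced with 10x Genomics 3′ chemistry on nuclei released by detergent lysis and a Dounce homogeniser. The authors deposited, per the file headers, raw UMI counts per gene and barcode from Cell Ranger 7.2.0, with no normalization. The sources used here name both mm39 and GRCm38 as the build and do not say whether introns or strand were counted. Intron counting sets how long genes weigh in both pools. Genes were matched by identifier to GENCODE M21 on GRCm38 for type and span only (52081 of 55357).

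Barcodes were ranked by total UMIs within a library, counts were summed per pool, and the 8 sums were tested in R 4.3.3 with edgeR 4.0.16 (quasi-likelihood F-test, filterByExpr, library block, totals as library sizes, two-sided, Benjamini-Hochberg). The interaction of pool and genotype kept the library block, and the genotype fits within a pool had none. DESeq2 1.42.0 was run beside it, and only the edgeR fits were tried on simulated counts. Other windows, nuclear limits, thinning, subtraction of free RNA, scalings and filters, and leaving out each library, were tried. Named genes were the 12 largest differences in each direction at 100 CPM or more, the 10 with most UMIs per pool, the highest, lowest and most abundant member of each of 23 lists, members of lists of up to 15, and 3 genes per direction in genotype tests. Members and lists were chosen with earlier results of these data known. The WT libraries held 66811225 and 51797891 UMIs and the Dhx37-/- libraries 65953881 and 75611263. No doublet call was made. One gene that the naming rule selects is not reported here. Figures were drawn with matplotlib 3.10.9.

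Same-numbered libraries of the 2 genotypes deviated from their group means with a correlation of -0.30 in free RNA, -0.22 in nuclei and -0.32 in the ratio, so the numbers were not taken as pairs.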

Additional observations from a re-analysis of the deposited data

Results flagged for a closer look

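Of 69 sets of 4 shares or ratios, 8 had 1 library far from the others by Dixon's test, at a limit that chance passes in about 1 in 20 groups. WT replicate 1 had the smallest log2 free over nuclear share for protamines and transition proteins (1.1), sperm tail and sheath (0.75), and testis histones and chromatin (0.82), and the one nearest to 0 for endothelial markers (-0.77). It also had the highest nuclear share of transcripts overlapping ribosomal RNA (0.0230%). Dhx37-/- replicate 1 had the highest share of erythrocyte markers in free RNA (0.0183%) and in nuclei (0.00389%). Dhx37-/- replicate 2 had the highest nuclear share of meiotic prophase genes (0.224%).

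For 8 named genes both WT libraries lay on one side of equal levels and both Dhx37-/- libraries on the other. The mean log2 ratio of Dhx37-/- libraries minus that of WT was -0.70 for Mrc1, -1.36 for Wt1, -0.77 for Star, 1.07 for C1qb, -2.02 for Acsl4, -1.91 for Fnbp1, 1.62 for Gm15343 and -2.05 for Gm43960. The last 4 and C1qb were named for their small p in the interaction test. The difference did not pass adjustment in that test for any of the 8, in edgeR or DESeq2.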

How the results depend on the processing

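The counts of genes rest on the window and the scaling. DESeq2 called 6050 genes higher in nuclei. Against ranks above 90000 up to 180000, which hold few UMIs, 2060 of 27335 genes were higher in free RNA and 1329 in nuclei. Leaving out 1 library gave 3465 to 4226 and 7564 to 10332. Of the values of named genes under all settings, 1719 kept direction and call, 67 lost the call, 36 gained one and 40 turned. The cause of these changes was not tested. Shares cannot tell a rise of one class from a fall of another, and whether few UMIs per gene in free RNA limit the calls there was not tested. With nuclear sums thinned to the free total, 3730 of 25519 genes were higher in free RNA and 7822 in nuclei.

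With TMM, DESeq2 size factors in edgeR and DESeq2 in turn, AY036118 lay at 0.25, 0.28 and 0.28, Alas2 at 0.26, 0.30 and 0.29, Mrc1 at 0.16, 0.20 and 0.20, Smc1b at 0.20, 0.24 and 0.24, Snhg17 at 0.094, 0.13 and 0.13, and Star at 0.17, 0.21 and 0.21. Against ranks above 90000 up to 180000, AY036118 lay at 0.76, Alas2 at 0.78, Eif5b at -0.51, Lars2 at -0.48, Norad at -0.35, Pabpc1 at -0.037, Rn18s-rs5 at -0.40, Shb at -0.15, Snhg17 at 0.47, Spaca6 at 0.41, Wt1 at -0.57 and mt-Rnr2 at -0.89, and the medians of meiotic prophase at -0.21 and of splicing and transcription machinery at -0.028. Against ranks 60000 to 75000, Eif5b lay at -0.0096. With no limit on genes per nucleus, Wt1 lay at -0.074 and the median of splicing and transcription machinery at -0.056. With nuclei thinned to 1000 UMIs, Alas2 lay at 0.16 and Star at 0.077. Leaving out 1 library in turn, Eif5b ran from -0.089 (without WT replicate 1) to 0.074, Mrc1 from -0.28 to 0.035 (without Dhx37-/- replicate 1), Star from -0.30 to 0.10 (the same library), AY036118 from -0.16 to 0.052 (the same library), Wt1 from -0.097 (without WT replicate 2) to 0.44, Alas2 from -0.12 to 0.087 (without WT replicate 2), and the medians of meiotic prophase from -0.10 to 0.18 and of splicing and transcription machinery from -0.050 to 0.19 (both lowest without WT replicate 1).

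The genotype counts were the least stable. For the ratio, edgeR called 635 genes with no filter on low counts, 1 against ranks above 90000 up to 180000, 159 with no limit on genes per nucleus, and 0 to 5385 without 1 library. For free RNA the counts were 350 with DESeq2, 1394 with no filter, 3 in ranks above 90000 up to 180000 and 1 to 7266 without 1 library. For nuclei they were 270 with DESeq2, 1135 with no filter and 3 to 5562 without 1 library. With the replicate block they were 19, 48 and 27. The numbers were not shown to pair the libraries, and with the crossed replicate block, chosen after seeing the data, they were 3084, 2823 and 1488.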
